A study of Mus musculus with 2 samples.

Results

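The genes of the ATP-binding cassette (ABC) transporter superfamily were examined in mouse liver. Members were taken as array probes whose annotation gave exactly 1 gene symbol beginning with Abca, Abcb, Abcc, Abcd, Abce, Abcf or Abcg followed by a number. This gave 49 probes for 48 genes, of 19938 genes named on the array. Abcb5 had 2 probes and was represented by the one with the higher mean level, and the other 47 genes had 1 probe each.

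The samples were left-lobe liver RNA from male mice aged 10 to 11 weeks on a hybrid Black Swiss/129-SV/J background. One pool came from 3 wild-type mice and the other from 3 mice labelled FHL2-/-, that is, homozygous for a knockout of Fhl2, whose LIM-domain product binds transcription factors and signalling proteins. With 1 array per pool no difference has a replicate or a test, and the spread between mice is hidden by the pooling. Because the tissue is bulk liver, fewer cells of a type and less RNA per cell cannot be told apart.

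ABC proteins couple the binding and hydrolysis of ATP to the movement of substrates across membranes. In the hepatocyte, canalicular pumps secrete bile salts, phospholipid, sterols and conjugated waste into bile, while basolateral pumps return solutes to the blood. Other members work in peroxisomes, mitochondria and lysosomes, and the ABCE and ABCF subfamilies have no membrane domain and act on ribosomes and translation.

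Values are log2 array levels per probe, and a difference is the knockout-labelled pool minus the wild-type pool. Levels of different probes are not on a common scale of abundance, so they are compared between pools for 1 gene and not between genes. A level filter was set at a mean of 5.44, the 40th percentile of probes with 1 symbol, and 36 of the 48 members (75%) reached it, against 59.8% of all genes. Abcc1 lay just inside the filter at a mean of 5.44 and Abcc5 just outside at 5.41. Fhl2 was at 5.30 in wild type against 5.33 in the knockout-labelled pool, below the filter. The labels do not say which part of the gene was deleted, so this probe does not check the genotype. The only repeat measurement on these arrays is that of several probes for 1 gene, and the SD of the difference between such probes was 0.143 over 660 genes. Hepatocyte markers (5 genes measured, among them Alb and Ttr) were at 10.8 to 13.7 in mean level and differed by between -0.07 and 0.15.

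Most ABC genes differed little between the pools. Of the 36 members past the filter, 24 (66.7%) had a difference smaller in size than the 0.143 SD between probes, against 59.7% of all genes. The median difference was 0.03 (range -0.69 to 0.30), close to the median of 0.04 over the 11924 genes past the filter. It was -0.0042 over all 48 members, where the median of all genes was 0.02. Of the 36, 2 were higher by at least 1.2-fold in the knockout-labelled pool, namely Abcg5 and Abcg8, where 8.66% of all genes passed the same threshold. At least 1.2-fold lower was 1 of the 36, Abcd2, where the share of all genes was 6.16%. Abcd2 was also the 1 member at least 1.5-fold lower, a class that held 0.335% of all genes, and 0 members were at least 1.5-fold higher, against 0.621%. Differences above 0 were found for 22 of the 36 members (61.1%), near the 59.5% of all genes. These counts lie near or under the background, apart from the single gene Abcd2.

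**Figure D1:**
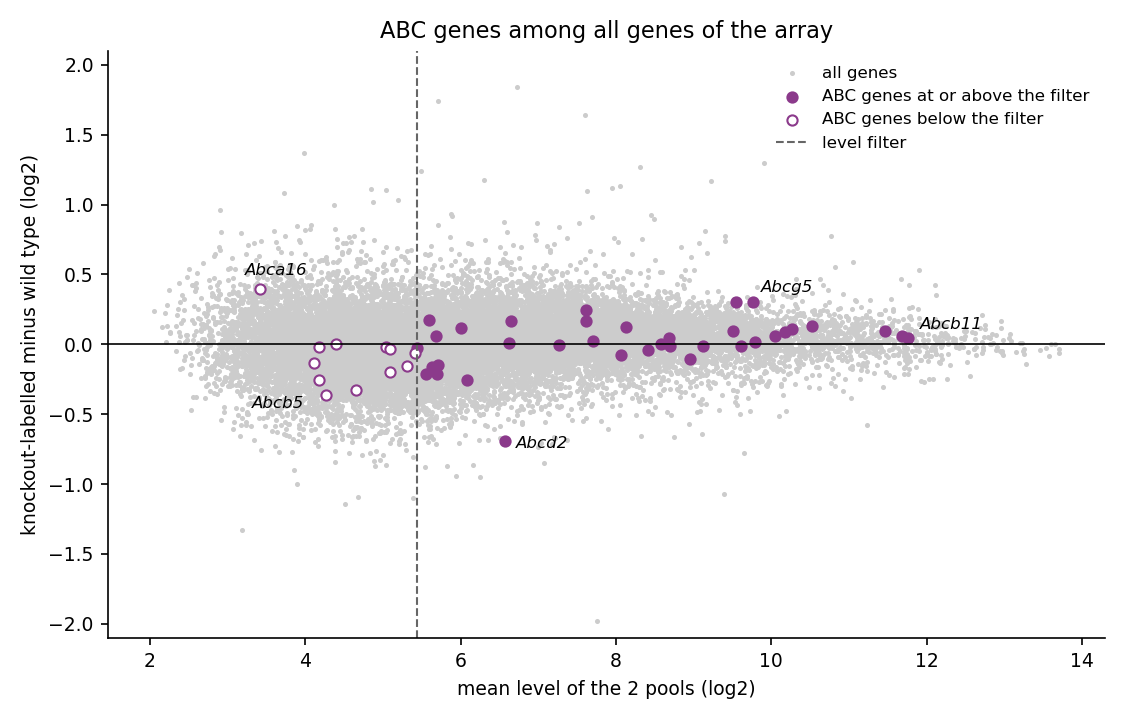
Each point is a gene, with its mean level over the 2 pools on the x axis (log2) and the knockout-labelled minus wild-type difference on the y axis (log2). Grey points are all 19938 genes, purple points the 48 ABC genes, open where below the level filter of 5.44 (dashed line). Abcd2 at -0.69 lies at the lower edge of the cloud, and most other ABC genes past the filter lie within its centre.

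The sterol transporters Abcg5 and Abcg8 form a heterodimer that secretes cholesterol and plant sterols into bile. Abcg5 was at 9.61 in wild type against 9.91 in the knockout-labelled pool (difference 0.30, or 1.23-fold). Abcg8 was at 9.40 and 9.70, likewise a difference of 0.30 and 1.23-fold. The knockout-labelled pool was thus higher for each partner by nearly the same amount, about 2 times the SD between probes, which holds no spread between mice. Among the 11924 genes past the filter they ranked 701 and 734 from the highest. With the trend of the difference on level removed by lowess they were at 0.26 each, just under the 1.2-fold line, so the count at least 1.2-fold higher fell from 2 to 0. With both arrays shifted to a common median they were at 0.35 and 0.34.

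Abcg5 and Abcg8 lie head to head on chromosome 17 and are transcribed away from each other. The 109 bases between their start sites are shown because the genes lie head to head. Any part of these bases in the differences was not tested. The bases come from RefSeq on build GRCm38.p6, at chr17:84683012-84683120 on the plus strand. Abcg8 follows on the right, at the nearer of its 2 annotated starts. Capitals mark matches to the motifs searched.
Abcg5-Abcg8: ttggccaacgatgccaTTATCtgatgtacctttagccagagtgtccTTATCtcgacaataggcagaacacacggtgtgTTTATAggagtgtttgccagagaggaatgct

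A search of both strands for exact letters found GATAA, the core bound by GATA factors, 2 times, from bases 17 and 47, each on the minus strand. TATAAA, the TATA box, was found 1 time, from base 79 on the minus strand, and no matches overlapped. AGGTCA, a site bound by nuclear receptors, CCAAT and GGGCGG had 0 matches. Of the 109 bases directly upstream of 27025 gene starts, 9.49% held GATAA, 6.30% TATAAA, 6.29% AGGTCA, 20.8% CCAAT and 26.0% GGGCGG. These matches describe the letters of the reference and say nothing of binding in these livers.

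Of the other canalicular pumps, Abcb11, Abcc2 and Abcb4 had small positive differences. Abcb11, the bile salt export pump, was at 11.74 in wild type against 11.78 in the knockout-labelled pool (difference 0.04). Abcc2, which exports bilirubin glucuronides and other conjugates, was at 11.41 and 11.51, a difference of 0.10. Abcb4, which moves phosphatidylcholine to the outer leaflet for secretion into bile, was at 10.46 and 10.60, a difference of 0.13. All of these lay within the SD between probes.

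Abcg2, an exporter of drugs and urate, was at 10.13 in wild type against 10.22 in the knockout-labelled pool (difference 0.09). The P-glycoprotein genes, which encode drug exporters, lay near the filter and on opposite sides of 0. Abcb1a was at 5.51 and 5.68, a difference of 0.18, while Abcb1b was at 5.18 and 4.99, a difference of -0.20 below the filter. They are close paralogs that can share probe sequence, so their separate values are uncertain. Over the 7 canalicular genes past the filter the median difference was 0.13 (range 0.04 to 0.30) and 7 of 7 were above 0, where 59.5% of all genes were. With Abcb1b, which the filter left out, 7 of 8 were above 0 and the median was 0.12.

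The basolateral pumps were nearly level between the pools. Abcc3, which exports conjugates to the blood, was at 10.22 in wild type against 10.33 in the knockout-labelled pool (difference 0.11). Abca1, which loads cholesterol and phospholipid onto apolipoprotein A-I, was at 9.62 and 9.60, a difference of -0.01. Abcc6, which mediates ATP release from hepatocytes, was at 9.13 and 9.12, also -0.01. Abcc3 alone was above 0 in the basolateral group. The signs depend on the scaling, since Abca1 and Abcc6 were at 0.03 and Abcc1 at 0.02 after the shift to a common median.

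Abcc4, an exporter of bile acids and cyclic nucleotides, was at 5.71 in wild type against 5.55 in the knockout-labelled pool (difference -0.16). Abcc1, an exporter of glutathione conjugates and leukotriene C4, was at 5.45 and 5.43, a difference of -0.02. Abcc5, an exporter of cyclic nucleotides, was at 5.44 and 5.38, a difference of -0.06 below the filter. All of these lie close to the filter level. The median over the 5 genes past the filter was -0.01 (range -0.16 to 0.11). It became 0.03 after the shift to a common median and -0.06 with the trend on level removed. With no further scaling 1 of 5 was above 0, against 59.5% of all genes. Whether canalicular and basolateral genes differ as groups was not tested.

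**Figure D2:**
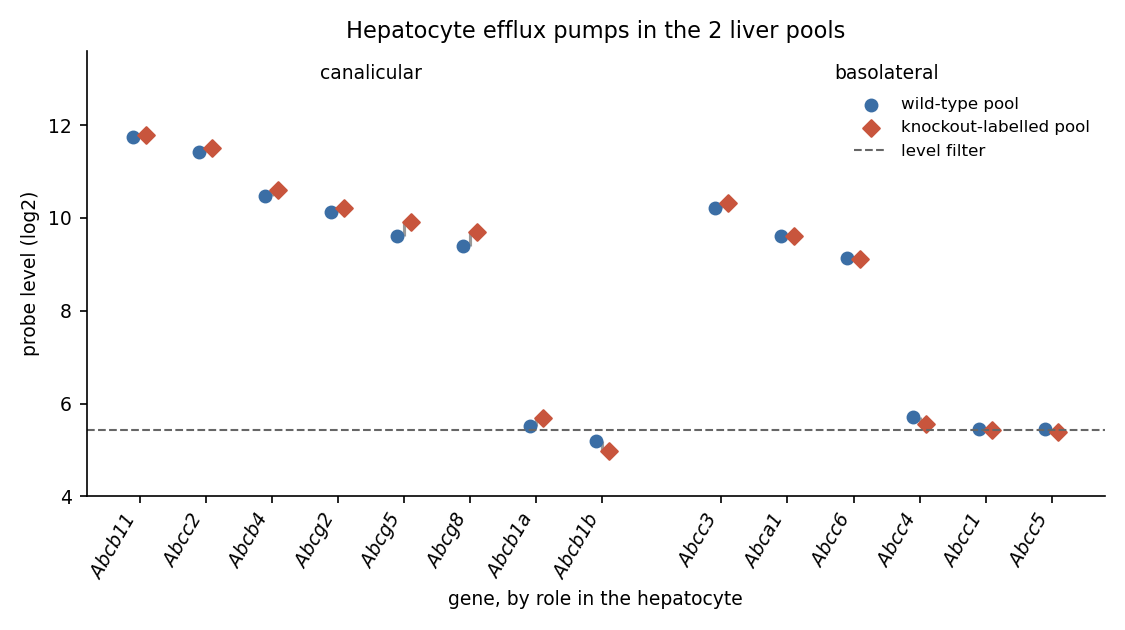
Log2 probe level (y axis) of the 8 canalicular and 6 basolateral genes (x axis), with 1 point per pool, blue circles for wild type and red diamonds for the knockout-labelled pool, and no error bars since each is 1 array. The points of a gene lie close together throughout, and the widest gaps are those of Abcg5 and Abcg8, at 0.30 each. Heights of different genes are not on a common scale.

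Abcd2, which carries very long-chain acyl-CoA into peroxisomes, had the largest difference of the family. It was at 6.91 in wild type against 6.22 in the knockout-labelled pool (difference -0.69). This is 1.62-fold lower. The difference is nearly 5 times the SD between probes, which holds neither the spread between mice nor errors shared by the probes of an array. It ranked 16 from the lowest of 11924 genes. It was at -0.65 after the shift to a common median and -0.72 with the trend on level removed. It rests on 1 probe, whose mean of 6.57 lies under the 60th percentile of levels, 6.69. Abcd3, the other peroxisomal member measured and the major transporter of that membrane, was at 11.65 and 11.71, a difference of 0.06, so these peroxisomal genes did not go the same way. Abcd2 is also known from fat tissue. Of 5 fat cell markers measured, 2 were past the filter, Plin1 at -0.22 and Cidec at 0.06. Thus 1 of 2 was above 0, against 59.5% of all genes. Adipoq, Lep and Retn lay below the filter in each pool, at -0.12, -0.11 and -0.01. The part of fat cells in the Abcd2 value was not tested.

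Peroxisomal partner genes were measured beside Abcd2. Of 19 past the filter, 16 were above 0, against 59.5% of all genes, and the median was 0.10, against 0.04. At least 1.2-fold higher was 1 of the 19, against 8.66% of all genes, and 0 were as much lower, against 6.16%. That gene was Acot8, a peroxisomal acyl-CoA thioesterase, at 7.72 in wild type against 8.02 in the knockout-labelled pool. The membrane protein import factor Pex19 was at 0.19, the division factor Pex11a at 0.20, the oxidation enzyme Ehhadh at 0.15 and the uptake protein Slc27a2 at -0.03. The list also holds Pmp22, a myelin protein placed there in error, at 0.16.

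The mitochondrial members lay above 0. Abcb8, a transporter of the inner membrane, was at 7.49 in wild type against 7.73 in the knockout-labelled pool (difference 0.24). It fell short of 1.2-fold, and reached it at 0.29 after the shift to a common median. Abcb6, which carries porphyrins, was at 9.46 and 9.56, a difference of 0.10. Abcb10, which serves heme synthesis in erythroid cells, was at 7.69 and 7.71, a difference of 0.03, or -0.04 with the trend on level removed.

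Heme and iron-sulfur genes of the same organelle were measured beside them. Of 14 past the filter, 11 were above 0, against 59.5% of all genes, with a median of 0.14. Of the 14, 2 were at least 1.2-fold higher, against 8.66% of all genes, and 0 as much lower, against 6.16%. Alas1, the first enzyme of heme synthesis, was at 9.25 in wild type against 10.55 in the knockout-labelled pool, and Slc25a37, which imports iron into mitochondria, at 6.70 and 7.13. Fech, which inserts the iron, was at -0.04. The mitochondrial transporters therefore had much smaller differences than Alas1. Alas2, the heme synthesis enzyme of red blood cell precursors, was at 0.29, while Slc4a1, a red cell membrane protein, was at -0.13 and Epb42, another, at -0.31 below the filter.

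Members of lysosomes and other intracellular membranes pointed both ways. Abca5, a lysosomal transporter, was at 6.21 in wild type against 5.96 in the knockout-labelled pool (difference -0.25), and Abcb9, a lysosomal peptide transporter, was at 5.80 and 5.59, a difference of -0.21. Abcd4, needed for cobalamin to leave lysosomes, was at 6.57 and 6.73, a difference of 0.16. Abca3, known for surfactant lipid in lung, was at 0.12 and Abca2 at -0.08. The median over all 6 members of this list was -0.04. It was -0.0013 after the shift to a common median and -0.10 with the trend on level removed. Of the list 2 of 6 were above 0, against 59.5% of all genes.

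Abcg1, which exports sterols to lipoproteins and is abundant in macrophages, was at 7.27 in each pool with a difference of -0.01. All 10 Kupffer cell markers were below 0, where 59.5% of all genes past the filter were above 0. Their median was -0.19 (range -0.40 to -0.0025), and 4 of 10 were at least 1.2-fold lower, against 6.16% of all genes. That median was -0.15 after the shift to a common median and -0.24 with the trend on level removed. The part of macrophages in the values of Abcg1 and Abca1 was not tested.

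**Figure D3:**
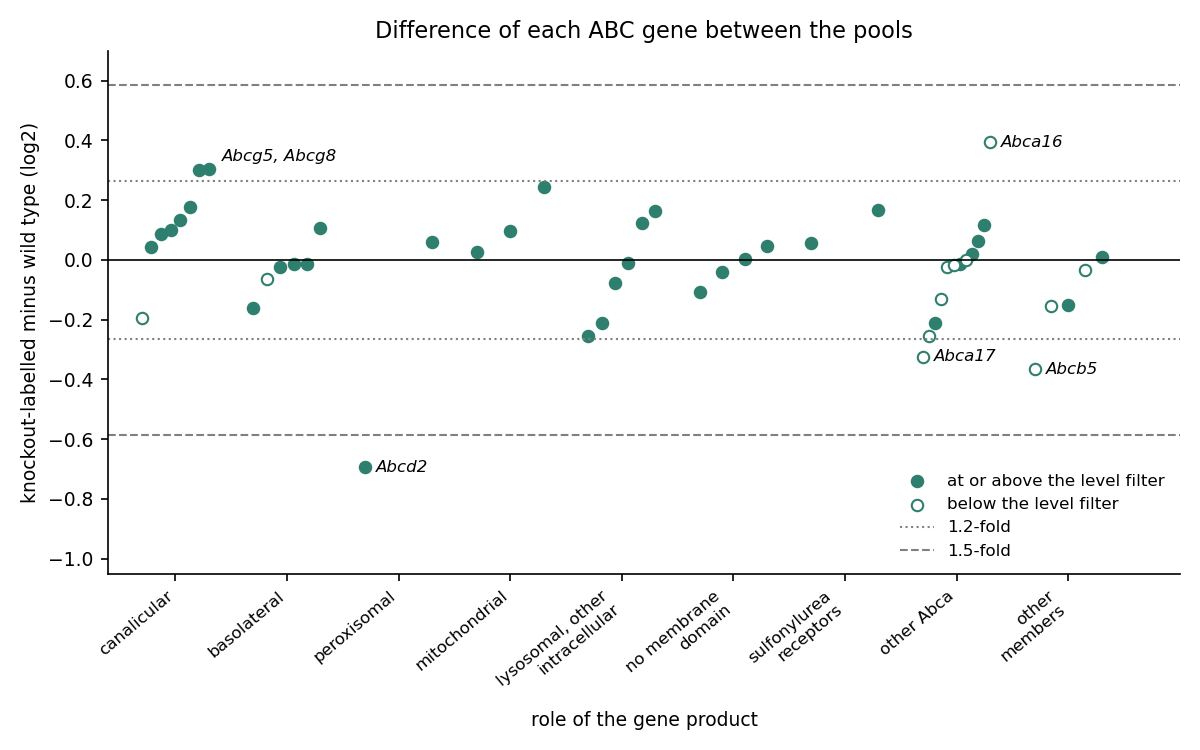
Knockout-labelled minus wild-type difference (y axis, log2) of each of the 48 ABC genes, grouped by the role of the product (x axis), with filled points at or above and open points below the level filter. Dotted and dashed lines mark 1.2-fold and 1.5-fold. Abcg5 and Abcg8 lie above the dotted line, Abcd2 below the dashed line, and other labelled genes are below the filter.

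The members without a membrane domain were close to level. Abce1, which splits ribosomes for recycling, was at 9.01 in wild type against 8.90 in the knockout-labelled pool (difference -0.11). Abcf1, which acts with an initiation factor of translation, was at -0.04, Abcf2 at 0.05 and Abcf3 at 0.0040. The signs of the ABCF genes depend on the scaling, since Abcf1 was at 0.00035 after the shift to a common median and Abcf2 and Abcf3 at -0.01 and -0.05 with the trend on level removed.

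The sulfonylurea receptors are regulatory subunits of potassium channels rather than pumps. Abcc9, the form of muscle and vessel wall cells, was at 7.53 in wild type against 7.70 in the knockout-labelled pool (difference 0.17). Abcc8, the form of pancreatic beta cells, was at 5.66 and 5.72, a difference of 0.06. Stellate and smooth muscle markers, whose cells are near vessels, had a median of -0.04, or 0.0044 after the shift to a common median. Of these markers 3 of 8 were above 0, against 59.5% of all genes. The part of these cells in the Abcc9 value was not tested.

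The ABCA subfamily is the one with the largest share of dim probes, with 7 of its 16 genes below the filter. Abca6, Abca8a, Abca8b and Abca9 are paralogs that neighbour each other and Abca5 on chromosome 11. Abca6 was at 10.01 in wild type against 10.07 in the knockout-labelled pool, Abca8a at 9.78 and 9.80, Abca8b at 8.70 and 8.69, and Abca9 at 5.66 and 5.45. In this cluster Abca9 at -0.21 and Abca5 at -0.25 were lower by more than the SD between probes, and the other genes lay within it. Abca7, a lipid transporter linked to phagocytosis, was at 0.12.

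The ABCA genes below the filter were Abca4 of the photoreceptor at 0.00016, Abca12 of the skin barrier at -0.02, Abca13 at -0.13, Abca14 at -0.02, Abca15 at -0.25, Abca16 at 0.39 and Abca17 at -0.32. Their levels ran from 3.22 for Abca16 in the wild-type pool to 5.04 for Abca14 in the same pool, where the size of a difference is uncertain. Abca14, Abca15 and Abca16 neighbour each other on chromosome 7 and had differences of each sign. Abca17 and Abca3 are neighbours on chromosome 17 and were at -0.32 and 0.12. In all, 10 pairs of members neighbour each other, some of them with a gene below the filter, and the pairs are described only.

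The remaining members were mostly dim. Abcc10, a drug exporter, was at 6.61 in wild type against 6.62 in the knockout-labelled pool. Abcg4, a sterol transporter known from brain, was at 5.78 and 5.63, a difference of -0.15. Below the filter lay Abcg3, a rodent gene, at -0.15, Abcc12 at -0.03 and Abcb5 at -0.37. The second probe of Abcb5 was at -0.08. Both of its probes lie below the filter, where the SD between probes was not taken. Without the level filter 3 members (6.25%) were at least 1.2-fold higher, against 9.22% of all genes, and 3 (6.25%) as much lower, against 9.63%. The same Abcg5, Abcg8 and Abcd2 were then joined by Abca16 on the higher side and by Abcb5 and Abca17 on the lower.

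By subfamily the medians past the filter were -0.01 for ABCA (9 genes), 0.10 for ABCB (7 genes), 0.03 for ABCC (8 genes), 0.06 for ABCD (3 genes), 0.0040 for ABCF (3 genes) and 0.09 for ABCG (5 genes), with Abce1 alone in ABCE. The medians of these 6 subfamilies lay within 0.1 of the 0.04 of all genes, and Abce1 was at -0.11. The ABCA median turned to 0.03 after the shift to a common median, and the ABCF median to -0.05 with the trend on level removed. Of the 7 ABCB genes past the filter 6 were above 0, against 59.5% of all genes, Abcb9 being the exception. Below the filter Abcb1b and Abcb5 were at -0.20 and -0.37.

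Genes that act beside the ABC pumps were set against them. Transcription factors known to act on ABC genes, most of them nuclear receptors, had a median of 0.16 with 12 of 14 above 0, against 59.5% of all genes. The bile acid receptor gene Nr1h4 was at 9.56 in wild type against 9.77 in the knockout-labelled pool, Nr1i2 for the xenobiotic receptor PXR at 8.75 and 8.97, and Nr1h3 for the sterol receptor LXR alpha at 9.35 and 9.46. These differences were 0.21, 0.23 and 0.11, and a link between them and the values of the canalicular genes was not tested. Ppard, a fatty acid receptor, went the other way at 7.53 and 6.86, a difference of -0.66. It was the 1 member of this list past 1.2-fold, where 8.66% of all genes were as much higher and 6.16% as much lower. Ppara, the related receptor that acts on peroxisomal genes, was at 0.20.

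Partners and targets in sterol efflux had a median of 0.04 and 9 of 14 above 0, against 59.5% of all genes. Npc2, which carries cholesterol in lysosomes, was at 7.47 in wild type against 7.94 in the knockout-labelled pool, while Lpl, lipoprotein lipase, was at 6.999 and 6.62. The other genes of the list past the filter ran from -0.13 for Srebf1 to 0.22 for Ttc39b, with Smpdl3a at 0.19. Within the family, the sterol transporters Abca1 and Abcg1 were at -0.01 each.

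Uptake carriers and flippases of the hepatocyte had a median of 0.03, or -0.02 with the trend on level removed. Of these 8 of 14 were above 0, against 59.5% of all genes. Slc22a7, an anion carrier, was at 9.19 in wild type against 9.53 in the knockout-labelled pool, 1.27-fold higher. Slc51b, a subunit of the basolateral bile acid exporter, was at 5.67 and 5.29, 1.30-fold lower, and its partner Slc51a was at -0.45 below the filter. Slc10a1, the main bile acid uptake carrier, was at 0.12, and Atp8b1, a canalicular flippase, at 0.02. Scaffold and trafficking genes of the canalicular membrane had a median of -0.02 over 9 genes, or 0.02 after the shift to a common median, with 4 above 0. Cgn, a tight junction protein, was at 7.80 and 7.37, 1.35-fold lower, and Rdx, which anchors Abcc2 at the canaliculus, was at -0.03.

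Targets of xenobiotic receptors outside the family had a median of 0.05 and 7 of 11 above 0, against 59.5% of all genes. Cyp2b10, a target of the receptor CAR, was at 6.25 in wild type against 6.91 in the knockout-labelled pool, and Nqo1, a quinone reductase, at 5.87 and 6.31. Cyp3a11 of the same list was at -0.14. ABC exporters named above went both ways. Abcc2, Abcc3 and Abcb1a had differences of 0.10, 0.11 and 0.18, while Abcc4 and Abcb1b were at -0.16 and -0.20, Abcb1b below the filter. Bile duct markers were above 0 for 4 of 5 past the filter, against 59.5% of all genes. Krt19 was at 0.27 and Krt23 at 0.33, both close to the filter at means of 5.48 and 5.59, while Sox9 was at -0.11. The part of bile duct cells in the canalicular values was not tested. Sinusoidal endothelial markers had a median of 0.13, against 0.04 for all genes, with 6 of 7 above 0, against 59.5%. The exocrine pancreas list had 1 of 3 above 0 and ran from -0.20 to 0.25.

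**Figure D4:**
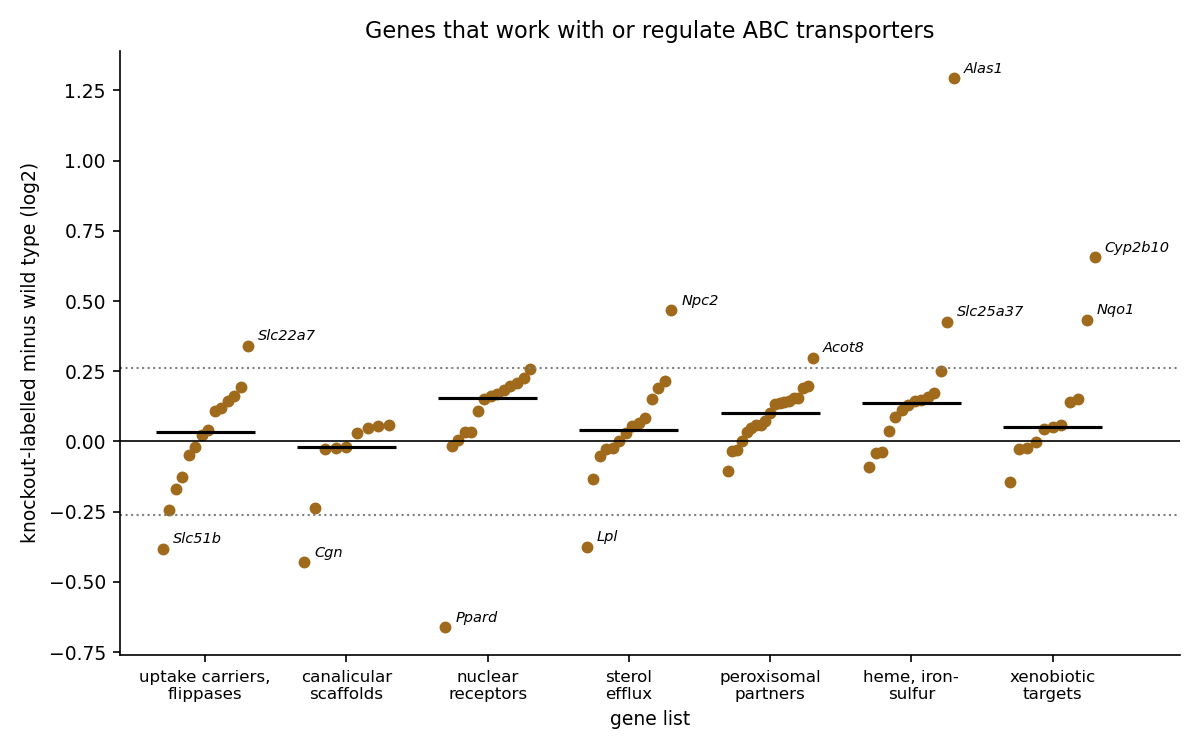
Knockout-labelled minus wild-type difference (y axis, log2) of genes in 7 lists of ABC partners, regulators and targets (x axis), past the level filter, with the list median as a black bar and 1.2-fold as dotted lines. Medians lie between -0.02 and 0.16, and the labelled genes are those at least 1.2-fold apart.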

How the data were processed

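For each of the 2 arrays the authors deposited log2 values, 1 per probe set. Per the submitters' processing notes the tools were Partek 6.4, RMA and Affymetrix Expression Console 1.0, with no roles stated. The genome build is not given in the sources used here. In general, RMA summarises probes on a log2 scale, compresses differences of dim transcripts and hides any change in total RNA. The table has no detection call.

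Probe names came from the platform annotation: 21789 of 28853 had 1 symbol, 1621 several and 5443 none. All 48 ABC symbols matched the GRCm38.p6 gene table by Entrez identifier, and 38 had a RefSeq start window. The probe with the highest mean stood for its gene. Differences were taken with no further scaling, in Python 3.11.15 with pandas 2.3.3. The choice of probe and the 1.5-fold call were tested on simulated data. The 1.2-fold counts, list medians and alternative scalings were not. Thresholds were 1.2-fold and 1.5-fold. Every member is named. Related genes past the filter and 1.2-fold apart are named up to 4 per list and direction, and others were chosen after their values were seen. Members and lists were chosen with earlier results of these data known. Alternatives were a common median, lowess (span 0.3), the mean over probes, probes of 1 sign, no filter and a filter at the 60th percentile.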

Additional observations from a re-analysis of the deposited data

How the results depend on the processing

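The number of arrays limits the precision, and nearly every member rests on 1 probe. Under the common median, lowess and the mean over probes, no member of the 48 moved by as much as 0.143, the SD between probes. The common median changed the sign of 9 and lowess that of 8, none of them above 0.05 in size. ABC genes at least 1.2-fold higher numbered 0 with lowess. Those at least 1.2-fold lower numbered 3 without the filter and 0 with it at the 60th percentile, where those 1.5-fold lower also numbered 0, since Abcd2 is then left out, and the peroxisomal median, left with Abcd3, turned to 0.0596. Over all genes, those 1.2-fold higher and lower numbered 1839 and 1920 without the filter and 614 and 267 at the 60th percentile, and those 1.5-fold higher and lower 153 and 133, and 41 and 14, since other genes are counted. The split of all genes at 1.2-fold went from 1033 higher and 734 lower to 1511 and 515 after the common median, and 778 and 848 with lowess. No paired analysis was possible because each group has 1 array.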
